A study of Homo sapiens with 24 samples.

Results

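The transcripts of 9 genes that write or read histone acetylation were followed in 4 human multiple myeloma cell lines with and without siRNA against IRF4. The genes were the 7 acetyltransferase genes EP300, CREBBP, KAT2A, KAT2B, KAT5, KAT6A and KAT6B and the 2 BET reader genes BRD2 and BRD3. They were picked by symbol, with earlier results of these data known, and were all found among the 25341 genes used. All 9 also passed the filter for testing, a TPM (transcript abundance per length, scaled to 1 total in every library) of at least 1 in at least 3 libraries, as did 15113 genes in all. Each line, MM1R, MM1S, KMS-12-BM and KMS-12-PE, was represented by 3 siIRF4 and 3 CTRL libraries of total RNA. siIRF4 cells had received a pool of siRNAs against IRF4 by electroporation and were collected at 48 h, whereas CTRL cells carry the labels DMSO and 0 h and no control siRNA is named for them. Electroporation, siRNA delivery as such, DMSO and time in culture therefore cannot be told apart from the loss of IRF4. All cells were grown in RPMI medium with fetal bovine serum. By origin, MM1R and MM1S are sister lines from 1 patient, and so are KMS-12-BM and KMS-12-PE. The labels do not say whether the 3 libraries of a group were separate cultures, so p-values describe the spread between these libraries.

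Acetyl groups on histone tails are added by acetyltransferases and bound by proteins with bromodomains, such as the BET family, which link acetylated chromatin to transcription. EP300 (p300) and CREBBP (CBP) are paralogous coactivators that acetylate histones at enhancers and promoters. KAT2A and KAT2B are the alternative catalytic subunits of the SAGA and ATAC complexes, and KAT5, KAT6A and KAT6B belong to the MYST family. IRF4 is a transcription factor on which myeloma cells depend, and BET and p300/CBP inhibitors are known to lower its expression in such cells. The study's title concerns p300, and the comparison here asks whether the writers and readers themselves differed after loss of IRF4.

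The target itself was lower in siIRF4 libraries of every line. IRF4 averaged 291.0 ± 27.8 TPM in siIRF4 MM1R cells and 380.3 ± 17.3 TPM in CTRL MM1R cells (SD, n = 3 here and below), the smallest of the 4 falls, and 155.3 ± 4.19 TPM in siIRF4 KMS-12-PE cells and 327.4 ± 10.3 TPM in CTRL KMS-12-PE cells, the largest. Reads recovered from the TPM values totalled 17.3 to 27.38 M per library. Each of the 10 plasma cell markers on the list reached 1 TPM in at least 1 library of all 8 groups. On average limma called 8 of them lower and 1 higher, beside 26.5% and 33.1% of all genes tested. Their summed TPM did not overlap between conditions in any line, and was higher with siIRF4 in MM1R and MM1S but lower in the KMS-12 lines. JCHAIN (mean of 5934 TPM over all libraries) and MZB1 (1854 TPM) weigh most in that sum. In MM1R 7 of the 10 were called lower and 1 higher, beside 21.2% and 25% of all genes tested. In MM1S 7 were called lower and 0 higher, beside 21.1% and 29.1%. Markers of other cell types were present in part of the libraries and moved with siIRF4 in KMS-12-PE, MM1R and MM1S. In KMS-12-PE the 5 stromal markers summed to 19.1 to 26.7 TPM in siIRF4 and 56.2 to 85.6 TPM in CTRL libraries. The 5 myeloid markers summed to 36.3 to 51.5 TPM in siIRF4 and 147 to 183 TPM in CTRL libraries, with LYZ, CD14 and CSF1R under 1 TPM in both groups. The 6 epithelial markers summed to 164 to 185 TPM in siIRF4 and 227 to 247 TPM in CTRL libraries. The 5 markers of T and NK cells summed to 27.1 to 31.1 TPM in siIRF4 and 9.74 to 11.4 TPM in CTRL libraries. Of the latter, CD3D, CD2 and GNLY were under 1 TPM in both groups. The 3 erythroid markers summed to at most 0.641 TPM in siIRF4 and 1.23 TPM in CTRL libraries. In MM1R the myeloid sum moved the other way, with 92.2 to 98.7 TPM in siIRF4 and 22.2 to 27.2 TPM in CTRL libraries. S100A8, LYZ, CD14 and CSF1R were under 1 TPM in both MM1R groups, which leaves S100A9 of the 5. The epithelial markers in MM1R summed to 3.92 to 4.76 TPM in siIRF4 and 4.98 to 6.76 TPM in CTRL libraries. KRT5, KRT14 and CDH1 were under 1 TPM in both of these groups. In MM1S the T and NK markers summed to 9.09 to 13.9 TPM in siIRF4 and 5.75 to 7.21 TPM in CTRL libraries. The erythroid markers in MM1S summed to 5.57 to 7.01 TPM in siIRF4 and 8.46 to 12.8 TPM in CTRL libraries. CD3D, CD2, NKG7, HBA1 and HBA2 were under 1 TPM in both MM1S groups. The part of such RNA in the results of these 3 lines was not tested. In MM1R and KMS-12-BM all 5 stromal markers were under 1 TPM.

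BRD3 was the only one of the 9 genes called higher in each of the 4 lines, and it had the largest average change of the 9. KAT6B (called in MM1S) and KAT5 (called in KMS-12-PE) also had changes above 0 in all 4 lines, that of KAT5 in MM1R only 0.0080. Averaged over the lines with equal weights, BRD3 rose by 0.53 ± 0.041 on the log2(TPM + 1) scale (SE, siIRF4 minus CTRL, limma adjusted p = 4.16e-10). KAT6B rose by 0.15 ± 0.038 (adjusted p = 0.00159), CREBBP by 0.10 ± 0.039 (adjusted p = 0.0329) and KAT5 by 0.080 ± 0.024 (adjusted p = 0.00684), while KAT2A fell by 0.074 ± 0.025 (adjusted p = 0.0163). EP300 changed by 0.068 ± 0.035 (adjusted p = 0.101), KAT2B by 0.044 ± 0.040 (adjusted p = 0.363), KAT6A by −0.044 ± 0.032 (adjusted p = 0.253) and BRD2 by 0.0026 ± 0.020 (adjusted p = 0.921), none of which passed the threshold of 0.05. That makes 4 higher and 1 lower of 9 genes, beside 59.6% of all genes tested that were called on average, 33.1% higher and 26.5% lower. The median change of the 9 genes was 0.068, beside 0.024 over all genes tested.

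**Figure D1:**
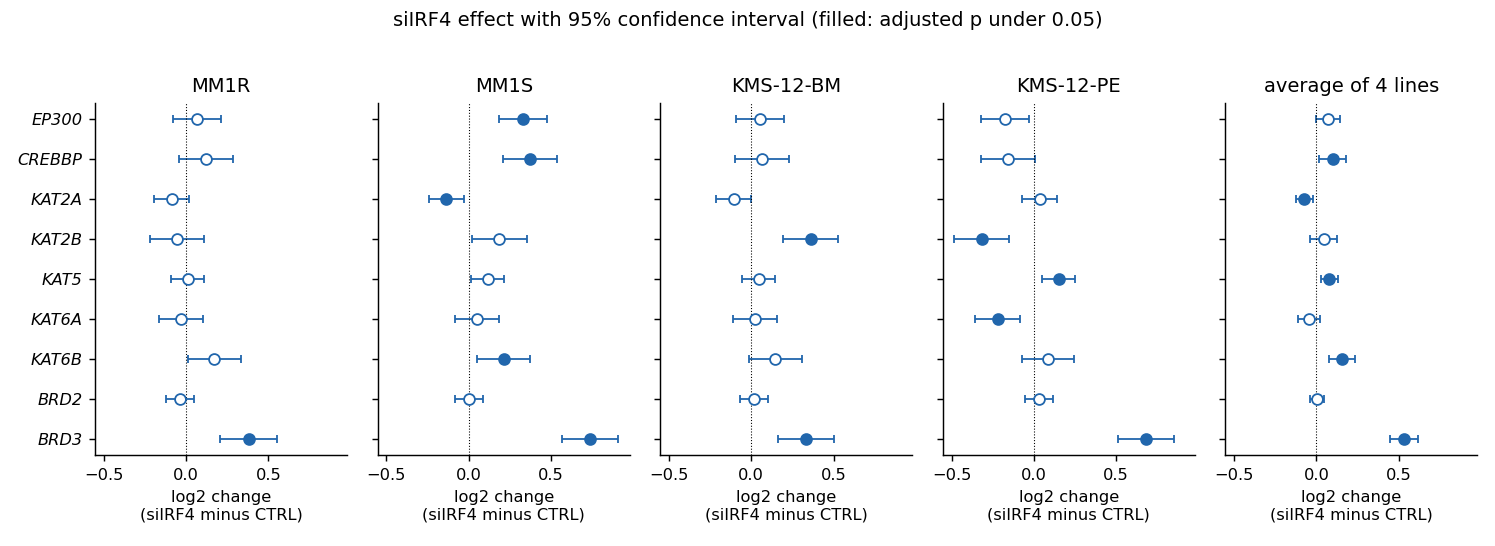
Change of each gene, siIRF4 minus CTRL, on the log2(TPM + 1) scale in the 4 lines and on average, with 95% confidence intervals from limma; filled points have an adjusted p under 0.05. BRD3 lies right of 0 with a filled point in all 5 panels, and EP300 and CREBBP lie to the right in MM1S (0.33 and 0.37) and to the left, with open points, in KMS-12-PE (−0.18 and −0.16).

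Counted by line, BRD3 was the gene common to all 4. In MM1R 1 of the 9 genes was higher, BRD3, with 46.2% of all genes tested called, 25% higher and 21.2% lower. In MM1S 4 genes were higher and 1 lower, with 50.3% of all genes tested called, 29.1% higher and 21.1% lower. In KMS-12-BM 2 genes were higher, with 17.5% of all genes tested called, 11.4% higher and 6.09% lower. In KMS-12-PE 2 genes were higher and 2 lower, with 38.1% of all genes tested called, 15.9% higher and 22.2% lower. With each library left out in turn, 1 to 2 genes were higher and 1 to 4 lower in KMS-12-PE, with 4 lower without CTRL replicate 3 and 1 lower without siIRF4 replicate 2 or CTRL replicate 1. In the same way 1 to 2 genes were higher in MM1R (2 without CTRL replicate 3) and in KMS-12-BM (1 without siIRF4 replicate 1), and in MM1S 3 to 5 were higher and 0 to 1 lower. Of all genes tested, 2.39% were called higher in each of the 4 lines. Groups without overlap between siIRF4 and CTRL libraries were found for 5 of the 9 genes in MM1S and for 4 in each of the other lines. Over all genes tested, in either direction, the share without overlap was 53.8% in MM1R, 55% in MM1S and, for the KMS-12 lines, 34.3% (KMS-12-BM) and 47.4% (KMS-12-PE). When effects were compared between lines, none of the 9 genes was called between MM1R and MM1S by limma, with 2.47% of all genes tested called, 1.14% higher and 1.33% lower. At an unadjusted limma p under 0.05 the effect in MM1R was lower for 4 of the genes, BRD3, EP300, CREBBP and KAT2B, and voom on the recovered reads called 1 gene, EP300 (−0.25, adjusted p = 0.0430).

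EP300 and CREBBP rose in MM1S and had lower mean levels in siIRF4 than in CTRL libraries of KMS-12-PE. EP300 had 50.2, 41.9 and 41.2 TPM in siIRF4 MM1S libraries, against 35.6, 35.0 and 34.4 TPM in CTRL MM1S libraries. The groups did not overlap, and 1 siIRF4 library stood above the other two. The change was 0.33 ± 0.070 (limma adjusted p = 0.000454), and without the highest library it was 0.24 (adjusted p = 0.00515). CREBBP had 26.1, 22.4 and 22.9 TPM in siIRF4 MM1S libraries, against 19.2, 16.5 and 18.7 TPM in CTRL MM1S libraries. These groups did not overlap either, and the change was 0.37 ± 0.078 (adjusted p = 0.000426).

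In KMS-12-PE the order of the groups was the other way round for both coactivators. EP300 had 20.02, 18.2 and 20.6 TPM in siIRF4 KMS-12-PE libraries, against 23.3, 23.5 and 20.1 TPM in CTRL KMS-12-PE libraries. CREBBP had 22.7, 22.7 and 23.3 TPM in siIRF4 and 29.3, 26.2 and 21.9 TPM in CTRL libraries of that line. For both genes the groups overlapped through CTRL replicate 3, the lowest of its group. The changes were −0.18 ± 0.070 for EP300 (limma adjusted p = 0.0529) and −0.16 ± 0.078 for CREBBP (adjusted p = 0.125). That of EP300 was called with median-of-ratios scaling (−0.16, adjusted p = 0.0270), with a filter on a mean of at least 5 TPM (adjusted p = 0.0368) and without siIRF4 replicate 3 of the line (−0.21, adjusted p = 0.0453). Without CTRL replicate 3 they were −0.25 (adjusted p = 0.0111) and −0.27 (adjusted p = 0.0064), and the average change of CREBBP was then 0.073 and no longer called (adjusted p = 0.0622). The average call of CREBBP was also lost without any one of 7 other libraries, with adjusted p between 0.0512 and 0.0685. These were siIRF4 replicate 1 and CTRL replicate 2 of MM1R and of MM1S, siIRF4 replicate 1 and CTRL replicate 1 of KMS-12-BM, and siIRF4 replicate 3 of KMS-12-PE.

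MM1R and KMS-12-BM gave smaller differences for the pair. CREBBP had 27.5, 27.1 and 26.2 TPM in siIRF4 MM1R libraries, against 24.6, 23.7 and 25.9 TPM in CTRL MM1R libraries, without overlap but with a change of 0.12 ± 0.078 that was not called (limma adjusted p = 0.232). EP300 had 49.6, 49.0 and 47.1 TPM in siIRF4 and 48.6, 42.6 and 48.1 TPM in CTRL MM1R libraries, which overlapped. Its change there was 0.066 ± 0.070 (limma adjusted p = 0.482). In KMS-12-BM EP300 changed by 0.051 ± 0.070 and CREBBP by 0.065 ± 0.078, and the groups overlapped for both.

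Averaged over the 2 lines of each pair, the siIRF4 effect was higher in the MM1 than in the KMS-12 lines for both coactivators. The difference of the effects, mean of the 2 MM1 lines minus mean of the 2 KMS-12 lines, was 0.26 ± 0.070 for EP300 (limma adjusted p = 0.00443) and 0.29 ± 0.078 for CREBBP (adjusted p = 0.00436). These were the 2 genes of the 9 called in that difference, which called 44.9% of all genes tested, 25% higher and 20% lower. Both were still called with any single library left out, where EP300 ranged from 0.22 to 0.30 and CREBBP from 0.25 to 0.35. The effects in MM1R and KMS-12-BM were close, 0.066 and 0.051 for EP300 and 0.12 and 0.065 for CREBBP. Those in MM1S (0.33 and 0.37) and KMS-12-PE (−0.18 and −0.16) lay far apart. Leaving out single libraries does not test dependence on 1 line. Both coactivators have long transcripts, longer than 95.6% and 97.3% of the genes tested by the lengths implied in the TPM values. The longest 1494 of the genes tested had a median of 0.082 in the same difference, beside 0.033 over all genes, and the part of transcript length in the coactivators' difference was not tested.

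EP300 stood above CREBBP in level per length in 3 lines and below it in KMS-12-PE, in both conditions. The ratio of EP300 to CREBBP TPM averaged 1.80 ± 0.0065 in siIRF4 and 1.88 ± 0.088 in CTRL MM1R libraries, and 1.87 ± 0.061 in siIRF4 and 1.94 ± 0.16 in CTRL MM1S libraries. In KMS-12-BM it was 1.31 ± 0.025 with siIRF4 and 1.32 ± 0.070 in CTRL, and in KMS-12-PE 0.855 ± 0.047 with siIRF4 and 0.869 ± 0.065 in CTRL. The average change of the log2 ratio was −0.036, with an exact two-sided permutation p of 0.222 within lines (adjusted p = 0.222 over the 4 paralog ratios tested).

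**Figure D2:**
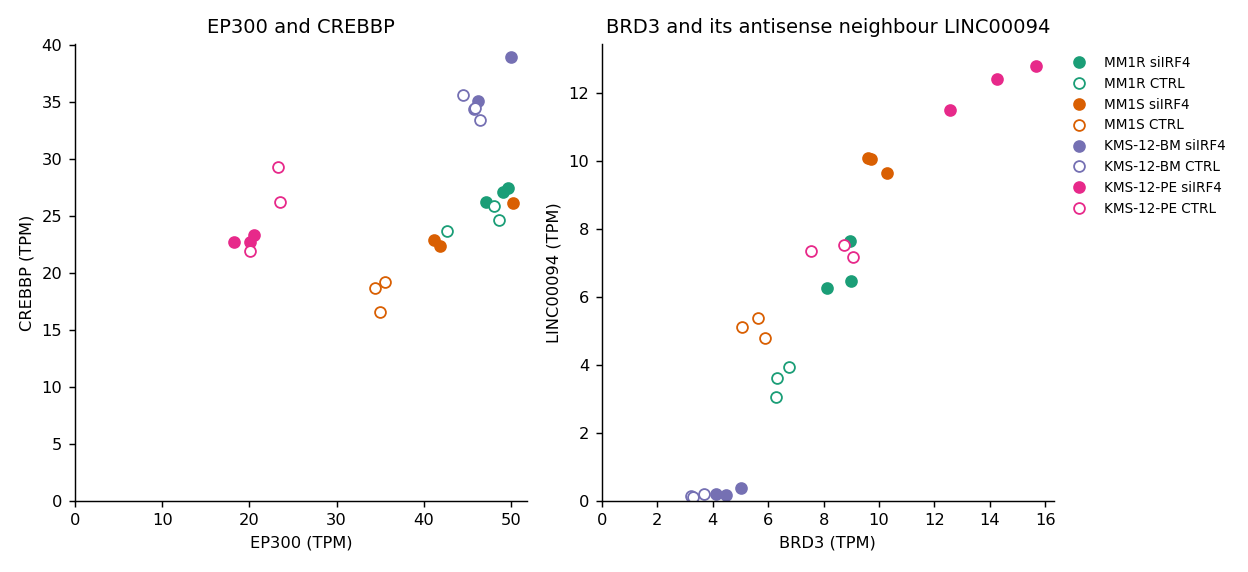
Left, CREBBP against EP300, and right, LINC00094 against BRD3, as TPM in each of the 24 libraries, with filled points for siIRF4, open points for CTRL and a colour for each line; all axes start at 0. The KMS-12-PE libraries stand at the lowest EP300 levels, 18.2 to 23.5 TPM. In the right panel the KMS-12-BM libraries lie near 0 for LINC00094, and their BRD3 levels separate by condition.

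The promoter sequences of the coactivators and of BRD3 are given to show the start regions of the 3 genes with the largest rises in MM1S. Windows of 300 bases, 250 before and 50 after the transcription start, were taken from RefSeq annotation of GRCh38.p14 for 8 of the 9 genes (14 windows, since some have several starts). KAT6A has no entry there. Capitals mark GGGCGG on either strand, the core of the GC box that SP1-like factors bind. The EP300 window lies at chr22:41092342-41092641 on the plus strand, the CREBBP window at chr16:3880664-3880963 on the minus strand and the BRD3 window at chr9:134067977-134068276 on the minus strand.
EP300: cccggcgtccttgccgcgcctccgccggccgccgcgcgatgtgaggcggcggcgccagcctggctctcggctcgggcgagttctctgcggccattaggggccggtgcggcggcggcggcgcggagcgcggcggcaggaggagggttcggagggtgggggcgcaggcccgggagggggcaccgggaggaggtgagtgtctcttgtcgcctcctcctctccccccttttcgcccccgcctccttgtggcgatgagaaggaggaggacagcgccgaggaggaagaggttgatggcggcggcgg
CREBBP: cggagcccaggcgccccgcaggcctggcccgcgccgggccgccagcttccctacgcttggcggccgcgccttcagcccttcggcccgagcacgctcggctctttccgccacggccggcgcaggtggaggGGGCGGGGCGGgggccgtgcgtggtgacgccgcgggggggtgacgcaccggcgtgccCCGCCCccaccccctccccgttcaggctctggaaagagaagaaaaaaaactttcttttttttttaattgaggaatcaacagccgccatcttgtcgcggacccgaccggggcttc
BRD3: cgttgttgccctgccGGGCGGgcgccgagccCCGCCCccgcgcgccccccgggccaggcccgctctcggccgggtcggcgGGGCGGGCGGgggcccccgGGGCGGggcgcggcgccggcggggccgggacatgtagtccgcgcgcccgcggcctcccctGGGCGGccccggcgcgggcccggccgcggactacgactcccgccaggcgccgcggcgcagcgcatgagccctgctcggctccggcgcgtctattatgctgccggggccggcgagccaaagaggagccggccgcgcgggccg
GGGCGG matched 6 times, with overlaps, in the BRD3 window, 3 times in the CREBBP window and 0 times in the EP300 window. It was present in 11 of the 14 windows of the 8 genes, beside 45% of all 35116 promoter windows. BRD2 has 4 of the 14 windows and KAT6B 3, so the windows are not independent. By gene, the matches lay in BRD2, BRD3, CREBBP, KAT2B, KAT5 and KAT6B and not in EP300 or KAT2A. The letters GAAANNGAAA, an interferon-response element, and GGAANNGAAA, a composite element of ETS factors and IRF4, can overlap each other. Both were searched on both strands and matched in 0 of the 14 windows, beside 3.57% and 2.82% of all windows. The guanine and cytosine content was 75.3% in the EP300 window, 70.3% in the CREBBP window and 85% in the BRD3 window.

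Of KAT2A and KAT2B, which occupy the same place in SAGA and ATAC, KAT2A fell on average and KAT2B rose in 1 line and fell in another. KAT2A, also known as GCN5, fell by 0.074 on average and was the highest of the 7 acetyltransferase genes by TPM in every line. It had 101, 102 and 99.5 TPM in siIRF4 MM1R libraries, against 107, 103 and 111 TPM in CTRL MM1R libraries, and 117, 118 and 111 TPM in siIRF4 KMS-12-BM libraries, against 125, 127 and 121 TPM in CTRL KMS-12-BM libraries. The groups did not overlap in these lines, yet neither change was called (−0.087, limma adjusted p = 0.173, and −0.11, adjusted p = 0.156). With median-of-ratios scaling the KMS-12-BM change was −0.15 and called (adjusted p = 0.0193). In MM1S KAT2A fell by 0.14 ± 0.051 (adjusted p = 0.0304), a call lost without siIRF4 replicate 2 or 3 or CTRL replicate 2 or 3 of that line (adjusted p between 0.0675 and 0.159). In KMS-12-PE the change was 0.036 ± 0.051. GENCODE 29 annotates AC099811.2 on the same strand over 405 of the exonic bases of KAT2A (10.7%). The deposited values do not list AC099811.2, and how reads from these bases were counted is not known.

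KAT2B, also known as PCAF, rose in KMS-12-BM and fell in KMS-12-PE. It had 11.0, 8.67 and 8.33 TPM in siIRF4 KMS-12-BM libraries, against 7.78, 6.86 and 6.40 TPM in CTRL KMS-12-BM libraries. In KMS-12-PE it had 11.2, 10.2 and 10.9 TPM in siIRF4 libraries, against 14.1, 13.9 and 13.0 TPM in CTRL libraries. Neither pair of groups overlapped, and they lay in opposite orders. The change was 0.36 ± 0.080 in KMS-12-BM (limma adjusted p = 0.00292) but −0.32 ± 0.080 in KMS-12-PE (adjusted p = 0.00333). Their difference, KMS-12-BM minus KMS-12-PE, was 0.68 ± 0.11 (adjusted p = 0.000195), between 0.57 and 0.75 without any single library, in a comparison that called 23% of all genes tested, 15.9% higher and 7.11% lower. In separate fits of each line the KMS-12-BM rise was not called (adjusted p = 0.0759). In MM1S KAT2B had 51.5, 51.8 and 48.0 TPM in siIRF4 and 46.3, 44.6 and 41.8 TPM in CTRL libraries, without overlap, and its change of 0.19 ± 0.080 was not called (adjusted p = 0.0589). That change was called with voom (0.18, adjusted p = 0.00491) and with separate fits (adjusted p = 0.0236). In MM1R the groups overlapped, and the change was −0.055 ± 0.080.

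The ratio of KAT2A to KAT2B followed these opposite changes. It averaged 12.5 ± 1.65 in siIRF4 and 17.8 ± 1.52 in CTRL KMS-12-BM libraries, but 8.44 ± 0.55 in siIRF4 and 6.47 ± 0.14 in CTRL KMS-12-PE libraries. In MM1S it was 1.52 ± 0.11 with siIRF4 and 1.91 ± 0.21 in CTRL, and in MM1R 2.61 ± 0.11 with siIRF4 and 2.66 ± 0.13 in CTRL. The groups of the 2 KMS-12 lines and of MM1S did not overlap. Averaged over the lines, the log2 ratio changed by −0.12 (exact two-sided permutation p = 0.182, adjusted p = 0.222 over the 4 ratios).

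**Figure D3:**
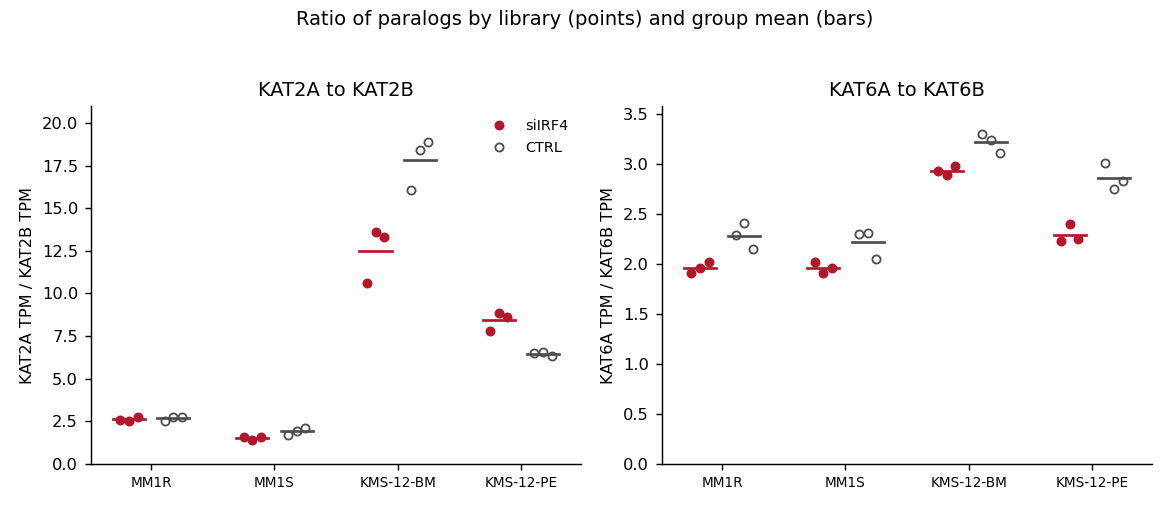
Ratio of KAT2A to KAT2B TPM (left) and of KAT6A to KAT6B TPM (right) in each library, with siIRF4 as filled red points left of CTRL as open grey points, and means of 3 libraries as bars; both axes start at 0. The left ratio is lower with siIRF4 in KMS-12-BM and higher in KMS-12-PE, while the right ratio is lower with siIRF4, without overlap, in all 4 lines.

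Among the MYST family genes, KAT6B was called higher on average and KAT6A was not, and the ratio of KAT6A to KAT6B was lower in every line. In KMS-12-PE it was KAT6A that fell (−0.22), while the change of KAT6B (0.086) was not called. KAT6B encodes a catalytic subunit of complexes that acetylate histone H3, and KAT6A is its paralog in the same complexes. KAT6B had 15.0, 13.5 and 12.5 TPM in siIRF4 MM1S libraries, against 11.8, 10.8 and 12.3 TPM in CTRL MM1S libraries, and 13.0, 12.6 and 12.1 TPM in siIRF4 MM1R libraries, against 11.3, 9.84 and 12.1 TPM in CTRL MM1R libraries. In KMS-12-BM it had 15.3, 14.0 and 13.8 TPM in siIRF4 and 12.6, 13.0 and 13.0 TPM in CTRL libraries. Its groups did not overlap in these 3 lines, though by little in MM1R and MM1S, and did in KMS-12-PE. The change in MM1S, 0.21 ± 0.077, was called (limma adjusted p = 0.0257), but not without siIRF4 replicate 1 (0.15, adjusted p = 0.149) or without CTRL replicate 2 (0.16, adjusted p = 0.126). The changes in MM1R (0.17, adjusted p = 0.0733), KMS-12-BM (0.15, adjusted p = 0.208) and KMS-12-PE (0.086, adjusted p = 0.429) were not called. With voom the MM1R change was called (0.19, adjusted p = 0.0138), as it was with median-of-ratios scaling (adjusted p = 0.0449) and without CTRL replicate 3 of that line (0.23, adjusted p = 0.0305).

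KAT6A fell in KMS-12-PE, and its differences in the other lines were between −0.030 and 0.051. It had 28.0, 25.7 and 27.8 TPM in siIRF4 KMS-12-PE libraries, against 33.3, 32.9 and 29.4 TPM in CTRL KMS-12-PE libraries, without overlap. That change was −0.22 ± 0.065 (limma adjusted p = 0.0103), and −0.18 (adjusted p = 0.0582) without siIRF4 replicate 2 or −0.19 (adjusted p = 0.0514) without CTRL replicate 1 of that line. The ratio of KAT6A to KAT6B averaged 2.29 ± 0.092 in siIRF4 and 2.86 ± 0.14 in CTRL KMS-12-PE libraries, and 2.93 ± 0.044 in siIRF4 and 3.22 ± 0.10 in CTRL KMS-12-BM libraries. In MM1R it was 1.96 ± 0.057 with siIRF4 and 2.28 ± 0.13 in CTRL, and in MM1S 1.96 ± 0.052 with siIRF4 and 2.22 ± 0.15 in CTRL. The log2 ratio changed by −0.21 on average, with an exact two-sided permutation p of 1.25e-05, the smallest that 160000 permutations within lines can give (adjusted p = 2.5e-05 over the 4 ratios). Within 1 line the smallest exact p that 3 against 3 libraries allow is 0.1.

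KAT5, the catalytic subunit of the NuA4/TIP60 complex, rose on average by 0.080 and, of the single lines, in KMS-12-PE. It had 61.1, 55.1 and 60.4 TPM in siIRF4 KMS-12-PE libraries, against 50.9, 54.6 and 53.2 TPM in CTRL KMS-12-PE libraries. The groups did not overlap, with 1 siIRF4 library close to the highest CTRL library. The change was 0.15 ± 0.048 (limma adjusted p = 0.0168), and it was not called in a separate fit of that line (adjusted p = 0.0654) or without siIRF4 replicate 1 or 3 or CTRL replicate 1 of it (adjusted p between 0.0702 and 0.0829). In MM1S the change was 0.11 ± 0.048 (adjusted p = 0.053) and in MM1R and KMS-12-BM it was 0.0080 and 0.046, with overlap of the groups in all 3 lines. KAT5 shares 1439 exonic bases, 38.6% of its own, with RNASEH2C on the opposite strand by GENCODE 29, and since the strandedness of the counting is not given in the sources used here, reads of the pair cannot be told apart. RNASEH2C fell on average by 0.12 ± 0.020 (limma adjusted p = 2.27e-05). In KMS-12-PE, the line in which KAT5 was called, RNASEH2C averaged 96.8 ± 1.40 TPM in siIRF4 and 90.95 ± 3.05 TPM in CTRL libraries, higher without overlap, with a change of 0.089 ± 0.039 that was not called (adjusted p = 0.0817).

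The BET readers divided into BRD3, which rose in every line, and BRD2, which was not called in any. BRD3 had 8.97, 8.99 and 8.13 TPM in siIRF4 MM1R libraries, against 6.76, 6.29 and 6.31 TPM in CTRL MM1R libraries. In MM1S it had 9.61, 9.71 and 10.3 TPM in siIRF4 libraries, against 5.64, 5.05 and 5.88 TPM in CTRL libraries. In all 4 lines every siIRF4 library lay above every CTRL library, which was so for 3.94% of all genes tested. In KMS-12-BM BRD3 had 5.01, 4.49 and 4.13 TPM in siIRF4 libraries, against 3.21, 3.69 and 3.29 TPM in CTRL libraries. In KMS-12-PE it had 15.7, 12.6 and 14.3 TPM in siIRF4 libraries, against 8.72, 9.05 and 7.53 TPM in CTRL libraries. KMS-12-PE had the highest and KMS-12-BM the lowest levels in both conditions.

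In ratios of the mean TPM, BRD3 was 1.35-fold higher in MM1R and 1.79-fold in MM1S, and it was 1.34-fold higher in KMS-12-BM but 1.68-fold higher in KMS-12-PE. On the log2(TPM + 1) scale the rises were 0.38 (limma adjusted p = 0.00067), 0.74 (adjusted p = 1.77e-07), 0.33 (adjusted p = 0.00659) and 0.68 (adjusted p = 1.13e-06) in the same lines, each with an SE of 0.082. The rise was smaller in KMS-12-BM than in KMS-12-PE by 0.35 ± 0.12 (adjusted p = 0.034), and that difference was not called with a pseudocount of 0.1 TPM in place of 1 TPM (adjusted p = 0.0853). It was also lost without siIRF4 replicate 2 or 3 or CTRL replicate 2 of KMS-12-BM and without siIRF4 replicate 1 or 3 or CTRL replicate 3 of KMS-12-PE (adjusted p between 0.0575 and 0.0972). Between MM1R and MM1S the effects differed by −0.36 ± 0.12, which was not called (adjusted p = 0.103). The KMS-12-BM rise itself was not called in a separate fit of that line (adjusted p = 0.0548) or without siIRF4 replicate 1 (0.27, adjusted p = 0.0501). Between 171 and 802 recovered reads per library lay behind the BRD3 values.

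BRD3 overlaps a gene on the opposite strand that rose as well in 3 of the lines. GENCODE 29 annotates 1281 exonic bases, 18.6% of those of BRD3, as shared with BRD3OS, which the deposited table lists under its older symbol LINC00094. LINC00094 averaged 6.79 ± 0.75 TPM in siIRF4 and 3.54 ± 0.45 TPM in CTRL MM1R libraries, 9.94 ± 0.24 TPM in siIRF4 and 5.10 ± 0.29 TPM in CTRL MM1S libraries, and 12.3 ± 0.67 TPM in siIRF4 and 7.36 ± 0.19 TPM in CTRL KMS-12-PE libraries. In KMS-12-BM it averaged 0.245 ± 0.11 TPM with siIRF4 and 0.157 ± 0.049 TPM in CTRL, from 7 to 24 recovered reads per library. Its change of 0.10 there was not called (limma adjusted p = 0.439), and that of BRD3 was 0.33. Without strand information, reads from the shared bases cannot be told apart in any line. The part of the overlap in the rise of BRD3 was not tested.

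BRD2 had overlapping groups in all 4 lines. It averaged 30.4 ± 0.82 TPM in siIRF4 and 31.2 ± 0.95 TPM in CTRL MM1R libraries, 26.6 ± 1.03 TPM in siIRF4 and 26.6 ± 0.24 TPM in CTRL MM1S libraries, 26.3 ± 0.98 TPM in siIRF4 and 25.9 ± 0.56 TPM in CTRL KMS-12-BM libraries, and 22.5 ± 0.26 TPM in siIRF4 and 22.1 ± 0.77 TPM in CTRL KMS-12-PE libraries. The 95% confidence interval of the average change was −0.040 to 0.045 on the log2 scale, the narrowest interval of the 9 genes. The log2 ratio of BRD3 to BRD2 rose by 0.61 on average, in every line, with an exact two-sided permutation p of 1.25e-05, the smallest possible (adjusted p = 2.5e-05 over the 4 ratios). The level of BRD2 is not comparable with that of other genes. The length by which its TPM was divided, read from the recovered reads, was 6.15 times its GENCODE 29 exonic length, both relative to the median gene. The same measure was 6.53 in the median of 87 genes of chromosome 6 between 29 and 33 M bases and 0.997 in the median of 13725 other genes. It was 0.522 for KAT6A and 0.355 for KAT6B, so the size of their TPM ratio also depends on the lengths used. A length scales a gene equally in all libraries and leaves its changes, and those of a ratio, as they are.

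In CTRL libraries, all 9 genes differed between KMS-12-BM and KMS-12-PE, 7 higher and 2 lower in KMS-12-BM, in a comparison that called 77.3% of all genes tested, 37.3% higher and 40% lower. EP300 was at 46.4, 45.9 and 44.5 TPM in KMS-12-BM CTRL libraries, against 23.3, 23.5 and 20.1 TPM in KMS-12-PE CTRL libraries, a difference of 1.01 ± 0.070 (limma adjusted p = 1.36e-11). BRD3 lay 1.10 ± 0.082 and KAT2B 0.88 ± 0.080 lower in KMS-12-BM (adjusted p = 4.34e-11 and 1.28e-09). The smallest call, KAT6B (0.19, adjusted p = 0.0266), was lost without CTRL replicate 2 or 3 of KMS-12-BM or CTRL replicate 1 or 3 of KMS-12-PE (adjusted p between 0.0577 and 0.116). Between MM1R and MM1S 6 genes were higher in MM1R and none lower by limma, with 57.3% of all genes tested called, 29.7% higher and 27.6% lower. At an unadjusted p under 0.05 the lower genes also numbered 0, and voom called 1 lower, KAT2B (−0.16, adjusted p = 0.0108). With median-of-ratios scaling KAT2B was called lower as well (−0.17, limma adjusted p = 0.0380). The largest of the 6 higher genes' differences was that of CREBBP, 24.7 ± 1.11 TPM in MM1R and 18.1 ± 1.40 TPM in MM1S (difference 0.43 ± 0.078, adjusted p = 8.43e-05). The smallest, BRD3 (0.19 ± 0.082, adjusted p = 0.0493), was lost in most alternatives.

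Between the MM1 and the KMS-12 lines, KAT2B had the largest CTRL difference of the 9 genes. It averaged 40.3 ± 2.66 TPM in MM1R and 44.2 ± 2.28 TPM in MM1S CTRL cells, against 7.01 ± 0.70 TPM in CTRL cells of KMS-12-BM and 13.7 ± 0.59 TPM in those of KMS-12-PE, a difference of 1.995 ± 0.056 (limma adjusted p = 5.33e-19). EP300 (0.33) and BRD2 (0.26) were also higher in the MM1 lines, and KAT5 (−0.70), KAT6A (−0.49), CREBBP (−0.47) and KAT2A (−0.14) were lower, in a comparison that called 85.2% of all genes tested, 40.4% higher and 44.8% lower. Ordered by CTRL level, EP300 ran from MM1R (46.4 TPM) over KMS-12-BM (45.6 TPM) and MM1S (35.0 TPM) to KMS-12-PE (22.3 TPM), and the libraries of the first pair overlapped. CREBBP ran from KMS-12-BM (34.5 TPM) over KMS-12-PE (25.8 TPM) and MM1R (24.7 TPM) to MM1S (18.1 TPM), with overlap between KMS-12-PE and MM1R. BRD3 ran from KMS-12-PE (8.44 TPM) over MM1R (6.45 TPM) and MM1S (5.52 TPM) to KMS-12-BM (3.40 TPM) with no overlap between neighbours. KAT6B showed the narrowest order, 12.9 TPM in KMS-12-BM to 11.1 TPM in MM1R, with MM1S, KMS-12-PE and MM1R overlapping in turn.

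The genes whose levels ran most like those of the coactivators and of BRD3 were found by Pearson's r over the 8 group means of log2(TPM + 1), among 8209 genes with at least 5 TPM in every group. For EP300 these were ADCK2 (r = 0.997) and IRF3 (r = 0.994), for CREBBP USP19 (r = 0.977) and WIPF2 (r = 0.973), and for BRD3 SEMA4D (r = 0.983) and ATP13A2 (r = 0.979). ADCK2 averaged 20.9 TPM in siIRF4 and 22.6 TPM in CTRL KMS-12-PE cells, its lowest groups, as for EP300. SEMA4D averaged 78.1 TPM in siIRF4 and 52.6 TPM in CTRL KMS-12-PE cells, and the siIRF4 KMS-12-PE group was the highest for SEMA4D as for BRD3. The 8 means share their libraries and depth across genes, and the correlations describe the pattern over 4 lines and 2 conditions.

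The other subunits of the same complexes moved in both directions. Beside each count below stand the 33.1% of all genes tested that were higher and the 26.5% that were lower on average, and the median of 0.024 over all genes. Of 13 further acetyltransferase genes 5 rose and 2 fell on average (median 0.050). NCOA3, a nuclear receptor coactivator, rose by 0.17 ± 0.031 (limma adjusted p = 9.76e-05), with 0.37 in MM1R and 0.47 in MM1S but −0.24 in KMS-12-PE, and ATF2, a CREB-family factor, rose by 0.12. HAT1, which acetylates newly made histone H4, fell by 0.28 ± 0.020 (adjusted p = 1.43e-10), with −0.49 in MM1R and −0.60 in MM1S and differences that were not called in the KMS-12 lines, and GTF3C4 fell by 0.10. Of 23 SAGA and ATAC subunits 7 rose and 6 fell (median 0.011). The adaptor genes TADA3 (0.29 ± 0.019, adjusted p = 2.53e-11) and TADA2B (0.29) rose, and TAF5L and WDR5, which encode WD-repeat subunits, fell by 0.15 and 0.14. Of 17 NuA4/TIP60 subunits 7 rose and 5 fell (median −0.0025, and 8 fell with median-of-ratios scaling), with EPC1 (0.21) and MEAF6 (0.19) among those that rose and the helicase-like RUVBL2, which fell by 0.25, and the actin-related ACTL6A, which fell by 0.18, among those that fell. Of 9 scaffold subunits of MYST complexes 4 rose and 3 fell (median 0.025). The count that fell was 1 without CTRL replicate 3 of MM1R, siIRF4 replicate 3 or CTRL replicate 1 of KMS-12-BM, or CTRL replicate 1 or 2 of KMS-12-PE. ING4, a reader of methylated histone H3, rose by 0.43 ± 0.030 (adjusted p = 1.18e-10), and MEAF6, on both lists, rose, while JADE3 fell by 0.20 and BRPF1 by 0.068.

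Single changes ran from −0.74 for MYB, among the partners of p300 and CBP, to 1.03 for SP140L, among the other bromodomain genes. Of 13 tested partners of p300 and CBP (14 on the list) 6 rose and 3 fell (median 0.051). MYB, a transcription factor that binds p300, fell by 0.74 ± 0.028 (limma adjusted p = 1.12e-14), with −0.95 in MM1R and −1.37 in MM1S against −0.35 (KMS-12-BM) and −0.29 (KMS-12-PE) in the other lines, and HIF1A fell by 0.10. The CREB coactivator CRTC1 rose by 0.29 and CITED2 by 0.18. CITED2 changed by 0.48 in MM1R, 0.53 in MM1S and −0.22 in KMS-12-BM. Of 9 tested BET-linked genes (10 on the list) 3 rose and none fell on average by limma (median 0.020). CCNT2, a cyclin of the elongation kinase P-TEFb, rose by 0.15 and LARP7 by 0.097. Voom also called none lower, whereas with median-of-ratios scaling 3 fell. At an unadjusted p under 0.05, 1 was lower on average by limma. In KMS-12-PE limma called 0 of these genes higher and 3 lower (median −0.14), beside 15.9% and 22.2% of all genes tested there. Of 25 tested other bromodomain genes (26 on the list) 14 rose and 7 fell (median 0.083). SP140L rose by 1.03 ± 0.034 (adjusted p = 1.5e-15) and SP100, a nuclear body gene, by 0.48, while ATAD2, linked to replication, fell by 0.44 ± 0.023 and TRIM28, a corepressor, by 0.25. Of 7 genes of acetyl-CoA supply 2 rose and 4 fell (median −0.10). ACSS1 (0.64 ± 0.027, adjusted p = 4.33e-14) and ACSS2 (0.20), which make acetyl-CoA from acetate, rose, and SLC25A1, the mitochondrial citrate carrier, fell by 0.30 and DLAT by 0.25.

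**Figure D4:**
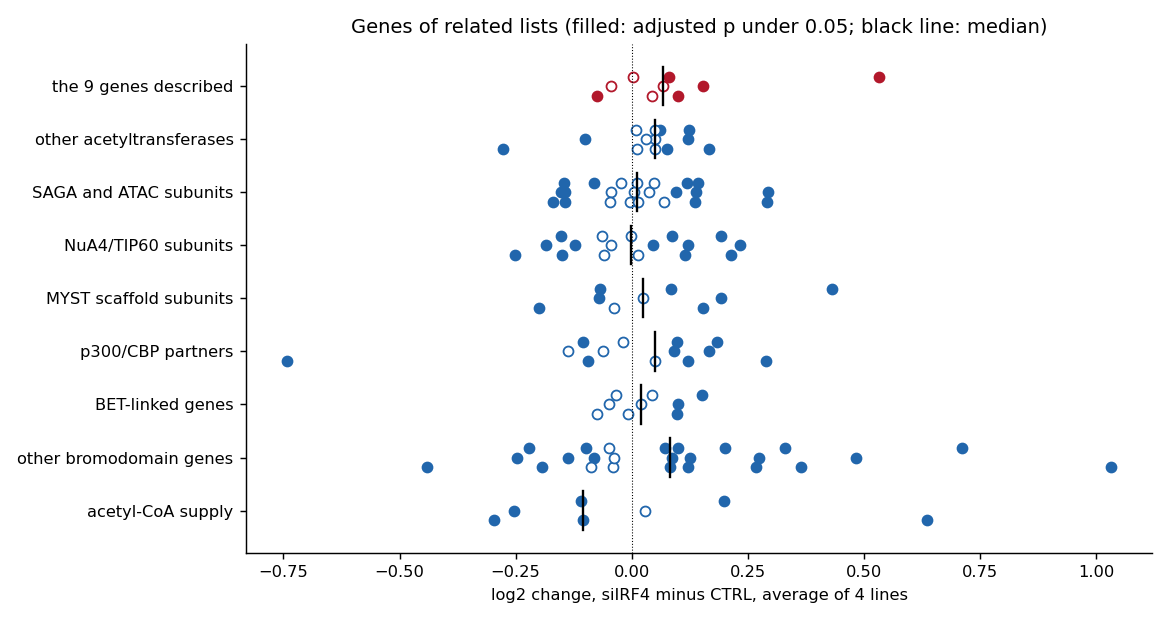
Average change, siIRF4 minus CTRL, on the log2(TPM + 1) scale over the 4 lines for the 9 genes described (red, top) and for each tested gene of 8 related lists (blue); filled points have an adjusted p under 0.05 and black lines are medians. Every list holds genes on both sides of 0; the leftmost point is MYB (−0.74) and the rightmost SP140L (1.03).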

How the data were processed

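Total RNA libraries (NEBNext Ultra II kit, per the labels' protocols) of 4 myeloma lines were sequenced, with 3 siIRF4 and 3 CTRL libraries each. The submitters' processing notes name hg19, STAR, featureCounts, FastQC and MultiQC, with no versions. The authors deposited TPM values, 1 column per library, each summing to 1000000. The annotation, the lengths used and the strand setting are not named in these notes. From the 25370 listed rows, 28 with symbols turned into dates and 1 with no symbol were dropped. Whole read numbers were found for 20484 genes (within 0.02 reads, in genes with values in 6 or more libraries), covering at least 99.96% of each library's TPM.

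The tests used limma 3.58.1 (R 4.3.3, eBayes with trend and robust prior) on log2(TPM + 1) of the 15113 genes with at least 1 TPM in at least 3 libraries, in 1 fit of 8 group means. The added 1 TPM makes changes of low genes smaller than their ratios. Genes were called at a two-sided Benjamini-Hochberg adjusted p under 0.05 over all genes tested. Paralog ratios were tested by exact permutation within lines, 160000 permutations, adjusted over the 4 ratios. The fit was tested on simulated data. Replicates differed beyond sampling noise (chi-square per degree of freedom of 2.1 or more), so none was a copy.

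The 9 genes, the 8 related lists and the 6 marker lists (plasma cell, stromal, epithelial, myeloid, T and NK, erythroid) were chosen with earlier results of these data known. From each related list, up to 2 genes that rose and 2 that fell on average with the smallest p were named, leaving out the 9 genes. For EP300, CREBBP and BRD3 the 2 most alike genes were named. KAT14, SGF29, NSD3 and JCHAIN were matched by older symbols. Alternatives were voom on the recovered reads, a replicate block, a pseudocount of 0.1 TPM, an unfiltered table and a filter on the mean (5 TPM). Others were median-of-ratios scaling, a prior with no trend and each of the 24 libraries left out in turn. Separate fits of each line covered only its own siIRF4 effect, and the replicate block did not cover the CTRL comparisons. Promoter windows came from RefSeq (GRCh38.p14) and exon overlaps from GENCODE 29 (GRCh38), a build other than that of the deposited values, so no coordinates were carried over. Computation used Python 3.11.15, numpy 2.4.6, pandas 2.3.3 and matplotlib 3.10.9.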

Additional observations from a re-analysis of the deposited data

Results flagged for a closer look

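The siIRF4 effects that differed between lines by the test of the difference itself concerned 4 of the 9 genes. In the difference KMS-12-BM minus KMS-12-PE, KAT2A was called besides with median-of-ratios scaling (−0.21, adjusted p = 0.0192) and voom (−0.20, adjusted p = 0.0210), and KAT6A with voom (0.20, adjusted p = 0.0254) and with a filter on a mean of at least 5 TPM (0.24, adjusted p = 0.0464). Without CTRL replicate 3 of KMS-12-PE, CREBBP (0.33, adjusted p = 0.0178), EP300 (0.30, adjusted p = 0.0324) and KAT6A (0.30, adjusted p = 0.0258) were called in it and BRD3 was not. KAT2B differed between KMS-12-BM and KMS-12-PE by 0.68 on the log2 scale (limma adjusted p = 0.000195), since it rose in all 3 siIRF4 libraries of KMS-12-BM relative to CTRL and fell in all 3 of KMS-12-PE. BRD3 differed between the same lines by −0.35 (adjusted p = 0.034), with a rise in both. CREBBP (0.29, adjusted p = 0.00436) and EP300 (0.26, adjusted p = 0.00443) had higher mean effects in the MM1 lines than in the KMS-12 lines. The effects in MM1R and KMS-12-BM were close to each other. Stromal, myeloid and epithelial marker sums were lower and the T and NK marker sum higher in siIRF4 than in CTRL libraries of KMS-12-PE. The myeloid sum was higher in siIRF4 than in CTRL libraries of MM1R (92.2 to 98.7 and 22.2 to 27.2 TPM). Of the myeloid markers, S100A8, LYZ, CD14 and CSF1R were under 1 TPM in both MM1R groups. Of the T and NK markers, CD3D, CD2 and GNLY were so in both KMS-12-PE groups. The part of these markers in the differences was not tested.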

How the results depend on the processing

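Depth limits BRD3 most, and p-values describe the spread between libraries that may be technical. With median-of-ratios scaling KAT6A was called lower on average (−0.061, adjusted p = 0.0402), and the direction of values near 0 turned for BRD2 on average (−0.014) and in KMS-12-BM (−0.020), KAT6A in KMS-12-BM (−0.016) and KAT5 in MM1R (−0.0031). That scaling gave 1382 higher and 1472 lower genes in KMS-12-BM, against 1730 and 920 in limma on the deposited TPM, and 1739 higher and 1582 lower in the effect KMS-12-BM minus KMS-12-PE, against 2402 and 1074. It moved the median of all genes by at most 0.04 in size (−0.0404 in KMS-12-BM). Without a filter the average change of CREBBP was not called (0.10, adjusted p = 0.0511), and voom called EP300 on average (0.076, adjusted p = 0.0146). In the effect MM1R minus MM1S limma called 173 genes higher and 201 lower, a pseudocount of 0.1 TPM 82 and 89, and voom 261 and 318. Same-numbered libraries did not deviate together (12 correlations from −0.088 to 0.086). A fit with the replicate number as a block called 95 genes higher and 88 lower in that effect. With the block the MM1S calls of KAT2A (adjusted p = 0.0764) and KAT6B (adjusted p = 0.0581) and the BRD3 difference KMS-12-BM minus KMS-12-PE (adjusted p = 0.0557) were lost, and KAT2B in MM1S (adjusted p = 0.0164) and KAT6A in the same difference (adjusted p = 0.05) were gained. Of the 12 siIRF4 libraries 2 correlated best with the CTRL library of their own number.

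With each library left out, the average changes ranged from −0.0050 to 0.0086 for BRD2, 0.073 to 0.12 for CREBBP and −0.065 to −0.029 for KAT6A. Within lines, the range was −0.016 to 0.045 for KAT5 in MM1R, −0.031 to 0.018 for BRD2 and −0.034 to 0.11 for KAT6A in MM1S, −0.011 to 0.036 for BRD2 and −0.021 to 0.049 for KAT6A in KMS-12-BM, and −0.016 to 0.063 for KAT2A in KMS-12-PE. For the effect MM1R minus MM1S it was −0.14 to 0.0038 for KAT6A and −0.12 to 0.023 for KAT6B, and for KMS-12-BM minus KMS-12-PE −0.040 to 0.014 for BRD2 and −0.0055 to 0.11 for KAT6B. In CTRL MM1R minus MM1S it was −0.056 to 0.0067 for KAT6A and −0.13 to 0.0041 for KAT6B. Counts ranged from 94 to 195 genes higher and 98 to 256 lower in the effect MM1R minus MM1S, and from 1027 to 1849 higher in KMS-12-BM. The cause was not tested.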
